A study of Mus musculus with 55 samples.

Results

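The translation initiation and elongation factors were the genes whose symbols begin with Eif or Eef and a digit. Pseudogene symbols, symbols with a dot, Eif2s3x and Eif2s3y were left out, which gave 62 of the 22800 gene symbols counted. The rule itself used no measured value, but it was set with earlier results of these data known. A library came from a single pyramidal neuron of mouse prefrontal cortex, whose cytosol was taken up with a patch pipette. The neurons were labelled D1 or D2, the names of dopamine receptor types, and came either from mice without a knockout, called wild-type here, or from Fmr1-/y mice. Fmr1 is the X-linked gene of FMRP, an RNA-binding protein that restrains translation, and its loss models fragile X syndrome. There were 15 wild-type D1 cells (aged 28 to 34 days), 26 wild-type D2 cells (29 to 35 days), 6 knockout D1 cells (31 and 32 days) and 7 knockout D2 cells (32 days). All of these passed quality control per the labels. The labels give neither the strain of the mice nor the way D1 and D2 neurons were identified, and the side label divides the cells exactly as the D1 and D2 label does. Of the 6 knockout D1 cells 5 were aged 32 days, an age without any wild-type D1 cell, so that genotype and age can hardly be told apart. The labels name no animal, so each group was treated as 1 sample, no test was made, and an SD describes only the spread between these cells.

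Translation of most mRNAs starts when the eIF4F complex binds the cap: eIF4E holds the cap, eIF4G is the scaffold and eIF4A unwinds the leader. eIF3, eIF1, eIF1A, eIF5 and the eIF2 complex with the initiator tRNA join the small ribosomal subunit, which scans to the start codon; eIF2B recharges eIF2 with GTP, and the eIF2 kinases stop that step under stress. During elongation eEF1A delivers each aminoacyl-tRNA, eEF1B recharges eEF1A, and eEF2, which eEF2 kinase inhibits, moves the ribosome along; in neurons these steps are set near synapses by receptor signalling, and FMRP represses many of the mRNAs they translate.

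Total counts per cell ranged from 260943 to 10673072. Fmr1 was read in 8 of 15 wild-type D1 cells and 13 of 26 wild-type D2 cells. Neither knockout group had a read of it (0 of 6 D1 and 0 of 7 D2 cells, where a limit of 3 cells of the total allows shares of 50% and 42.9%). The 8 pyramidal markers were all read in each group, with a summed median of 3365 to 4227 CPM (a gene's counts over the cell's counts in all genes, times 1000000). Markers of other cells were present too: the 12 microglial markers summed to medians of 898 and 588 CPM in D1 and D2 cells of the wild type and 439 and 249 CPM in those of the knockout. The 10 astrocyte markers summed to medians of 1059, 835, 602 and 675 CPM in the same order, and the 10 oligodendrocyte markers to 338, 585, 393 and 1062 CPM. The summed markers ranged widely between cells of a group (microglial, 0.319 to 10595 CPM in wild-type D1 and 0.453 to 2487 CPM in knockout D1 cells), and their part in the values below was not tested. Less RNA drawn up and a lower level in the cell cannot be told apart for any 1 gene.

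How many of the 62 factors were read depended on how many genes a cell's library held at all. Between 8 and 50 factors were read per wild-type D1 cell (median 38), 13 to 54 per wild-type D2 cell (35), 34 to 46 per knockout D1 cell (40) and 25 to 51 per knockout D2 cell (48). Among cells with at least 4000 genes read, called gene-rich here, the medians were 43, 46, 40 and 48.5. Gene-rich cells were 9 of 15, 13 of 26, 6 of 6 and 6 of 7 in these groups, so a difference over all cells also carries the larger number of genes read in the knockout groups. The value in gene-rich cells is therefore given beside the differences over all cells. Together the factors took a median of 0.671% and 0.630% of the counts in D1 and D2 cells of the wild type, and 0.624% and 0.707% in those of the knockout. Eef1a1 was the only factor read in all 54 cells, Eif4e1b, the oocyte form of the cap-binding protein, was read in none, and 41 factors were read in over 50% of cells. Of 1876 values above 0, 166 (8.85%) rested on 1 to 3 counts.

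**Figure D1:**
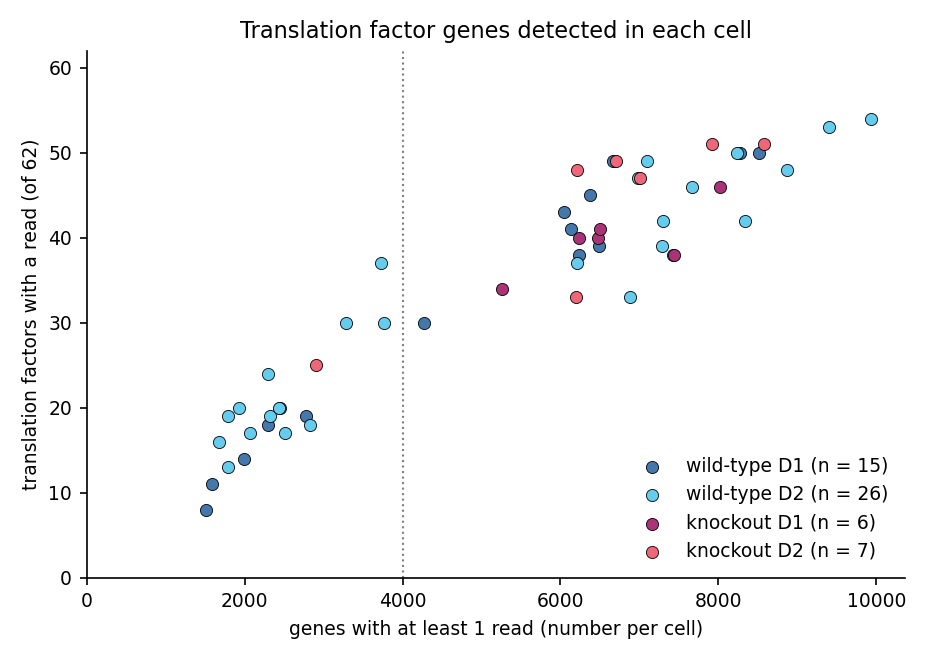
Factors with a read (of 62, vertical axis) against genes with a read (horizontal axis) in each of the 54 cells, coloured by group; the dotted line marks 4000 genes. Cells with fewer genes read also have fewer factors read, and all knockout cells but 1 lie to the right of the line.

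Per kilobase of exon, the most abundant factors in the summed counts of all cells were Eif1, which guards start codon choice, at 242 CPM per kb, Eef1a1 at 210, and Eif5a, which relieves stalled ribosomes, at 203. Eif1b (135), the eIF3 subunit Eif3g (73.1) and the helicase Eif4a2 (70.8) came next. This order depended on the measure. With the longest transcript as the length, Eif1 stood at 385, Eif5a at 335 and Eef1a1 at 292 CPM per kb, and with equal weight for each cell Eef1a1 led at 230, before Eif1 at 207 and Eif5a at 184. Eif1 was read in 52 of 54 cells, with 167 to 1084 CPM (median 511) in wild-type D1 and 0 to 1805 CPM (median 329) in wild-type D2 cells. In knockout D1 cells it ran from 114 to 951 CPM (median 181) and in knockout D2 cells from 30.4 to 1037 CPM (median 268). All 4 ranges overlapped, and knockout D1 cells held the lowest median. Eif1 shares 19.2% of its 50-base windows with 18 genes, 17 of them pseudogenes, so that its counts are uncertain. At the low end, Eif4ebp2, which encodes an inhibitor of eIF4E, was read in 1 of 54 cells (95.2 CPM in a wild-type D1 cell). Eif2ak2, the kinase that responds to double-stranded RNA, was read in 2 cells at 23.9 and 0.339 CPM.

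**Figure D2:**
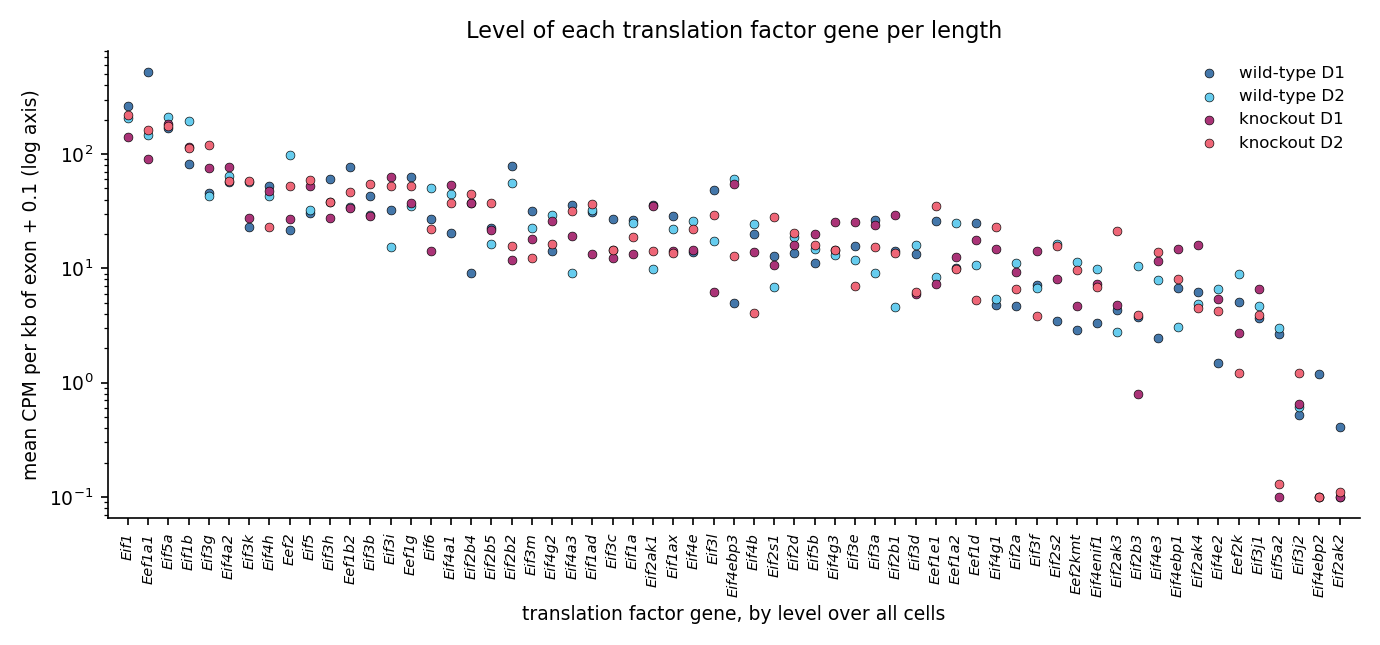
Mean CPM per kb of exon plus 0.1 (log axis) of the 61 factors with a read, ordered by summed level over all cells, with a point for each group. Eef1a1 has the widest spread of the leading genes, from 522 in wild-type D1 to 89.7 in knockout D1 cells.

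Several factors come in paralogous forms, compared here per length. Eef1a2 is the form of eEF1A that takes over in mature neurons and muscle, yet Eef1a1 held most of the summed signal of the pair: Eef1a2 took 2.46% and 11% in D1 and D2 cells of the wild type, and 8.78% and 4.97% in those of the knockout. Eef1a2 passed 50% of the pair in 1 D1 and 4 D2 cells of the wild type, and in 1 D1 and 0 D2 cells of the knockout. In gene-rich cells its summed shares were 2.71%, 4.58%, 8.78% and 4.74% in the same order, so the D2 groups were then alike. Only 1 gene-rich wild-type D2 cell passed 50%. Eef1a1 shares 40.4% of its 50-base windows with 21 genes, 18 of them pseudogenes, so how reads were split between copies could change its level. Of the helicase pair, Eif4a2 took 78.8% and 68.3% in wild-type D1 and D2 cells and 55.2% and 56.9% in knockout D1 and D2 cells. By the median cell instead, Eif4a2 took 74.7%, 61%, 63.8% and 77.9%, so in D2 cells the order of the genotypes turned with the weighting. Eif4a1 shares 28.4% of its 50-base windows with 12 genes, 8 of them pseudogenes, and Eif4a2 shares 13.6% with 11 genes. The split of reads could change these levels too.

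Among the 3 Eif4g genes, Eif4g1 encodes the main scaffold of eIF4F, Eif4g2 a form without an eIF4E-binding site and Eif4g3 a second scaffold. Eif4g1 took a median share over cells of 1.52% and 11.5% in D1 and D2 cells of the wild type, and 23.2% and 48.1% in those of the knockout. Over summed counts these shares were 19.9%, 9.57%, 18.2% and 43.9%, where 87.5% of its wild-type D1 counts came from a single cell. Eif4g2 took the largest summed share in wild-type D1 (46.3%), wild-type D2 (61.1%) and knockout D1 cells (46.4%), and Eif4g1 did in knockout D2 cells. By the median over knockout D1 cells, however, Eif4g2 took 29.1%, less than Eif4g3, and Eif4g2 passed 50% in only 1 of the 6 cells. Eif5a took 96.8% to 100% of the summed Eif5a pair in each group. Among the eIF2 kinases, Eif2ak1, the haem-regulated form, took 74.8%, 56.9% and 64.1% of the summed signal in wild-type D1, wild-type D2 and knockout D1 cells. In knockout D2 cells Eif2ak3 (PERK, of the endoplasmic reticulum) took 61.8%, but 74.8% of its counts there came from 1 cell and its median share was 23.6%.

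**Figure D3:**
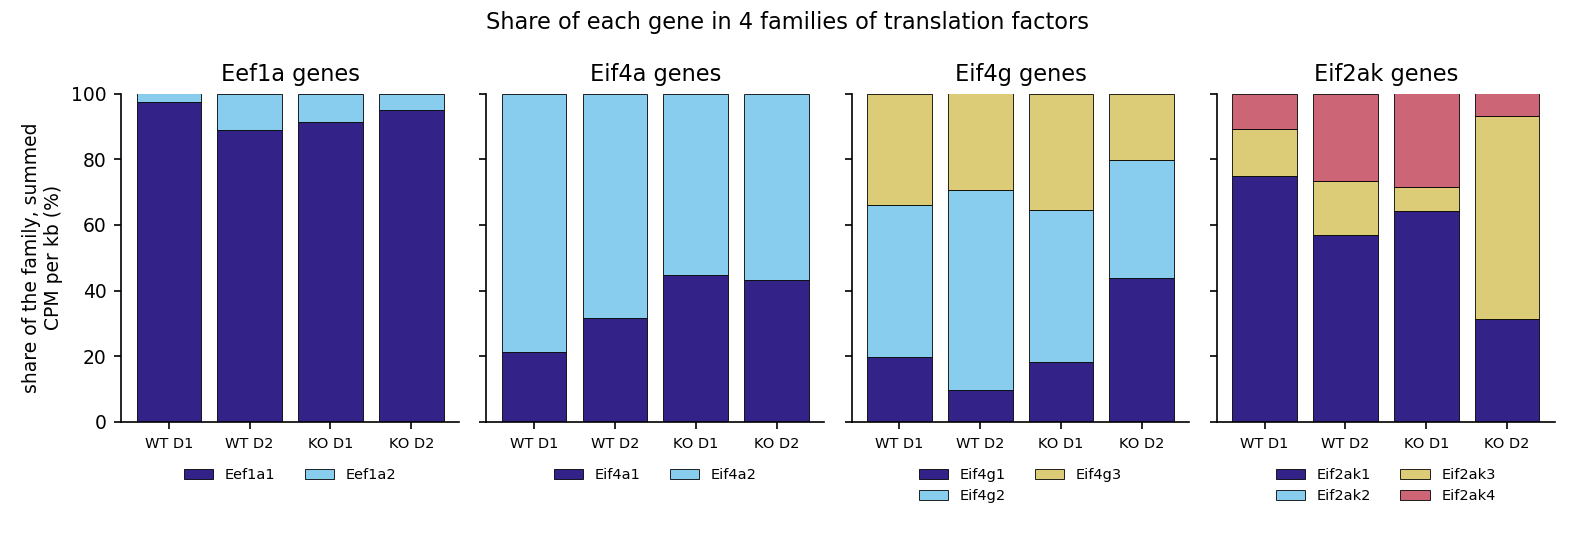
Stacked bars of the share (%) each gene takes of its family's summed CPM per kb, for the eEF1A pair, the eIF4A pair, the eIF4G genes and the eIF2 kinases in the 4 groups. All cells are used, and Eef1a2 takes at most 11% of its pair, in wild-type D2 cells (4.58% in the gene-rich ones). Eif4g1 takes its largest share, 43.9%, in knockout D2 cells.

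Promoter sequences are shown for 4 factors on which the levels and differences turn: the unequal pair Eef1a1 and Eef1a2, the translocase gene Eef2, and Eif4g1. Each is the 100 bases before an annotated start, 5′ to 3′ on the gene's strand, from RefSeq on GRCm38.p6, with motif matches on either strand in capitals. They lie at chr9:78481725-78481824 (minus strand), chr2:181157016-181157115 (minus), chr10:81176531-81176630 (plus) and chr16:20672627-20672726 (plus). The first 3 hold no exon base and the last holds 4 exon bases of Eif4g1.
Eef1a1: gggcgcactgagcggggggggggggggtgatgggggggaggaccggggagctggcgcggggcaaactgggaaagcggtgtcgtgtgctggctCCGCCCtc
Eef1a2: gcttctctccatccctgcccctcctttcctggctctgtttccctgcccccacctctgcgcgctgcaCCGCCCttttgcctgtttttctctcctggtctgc
Eef2: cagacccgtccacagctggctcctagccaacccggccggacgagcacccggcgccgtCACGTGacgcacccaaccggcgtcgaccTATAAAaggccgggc
Eif4g1: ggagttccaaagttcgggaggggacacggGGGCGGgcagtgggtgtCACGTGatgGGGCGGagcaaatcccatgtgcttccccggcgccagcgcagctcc
The capitals mark the GC box in Eef1a1 and Eef1a2, the E-box and the TATA box in Eef2, and 2 GC boxes and 1 E-box in Eif4g1. Over the annotated windows, which run from 250 bases before to 50 after a start, 48 of the 62 factors matched with 63 windows. Of these, 69.8% held the GC box GGGCGG, against 35.7% of all 32851 windows. The E-box CACGTG was in 22.2% against 7.15%, the ETS motif CCGGAAG in 31.7% against 8.86% and the NRF1 motif GCGCATGC in 7.94% against 2.71%. The YY1 motif AAGATGGC was in 6.35% against 2.75%, the CRE TGACGTCA in 1.59% against 1.79%, and the TATA box TATAAA in 6.35% against 13.6%. The composite motif TGATGNAAT of ATF4 was in 0 of the 63 windows and in 0.965% of all. A match describes these letters and no more, since binding was not measured.

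Knockout and wild-type cells were compared by the difference of their average log2(CPM + 1), with equal weight for each cell. Genes were called measured where they averaged 1 CPM or more and at least 10% of the compared cells had a read. In D1 cells the 58 measured factors had a median difference of 0.92 log2 units toward the knockout, where all 10792 measured genes had 0.98. At least 1 log2 unit separated 27 factors upward and 9 downward, against 49.6% and 8.02% of all measured genes. In gene-rich D1 cells the median was -0.43 over 59 factors and 0.14 over all genes, with 9 factors higher and 21 lower by that size (all genes: 28.5% and 22.7%). In D2 cells the 59 measured factors had a median of 1.04, all 11222 measured genes 0.56, and 30 factors were higher and 0 lower (all genes: 36.4% and 6.91%). In gene-rich D2 cells the medians were 0.09 for the factors and -0.39 for all genes, with 9 factors higher and 10 lower (all genes: 14.2% and 30.0%). With counts summed over cells, the factors' median turned to -0.16 in D1 and -0.082 in D2 cells, where all genes had -0.037 and -0.51. With log2(CPM + 10), 17 factors were higher and 3 lower in D1 cells (all genes: 29.1% and 2.58%), and 11 higher in D2 cells (all genes: 15.4%). The sign of the factors' median therefore depended on how cells were weighted. Beside all genes, it lay higher in D2 cells under all 3 weightings. In D1 cells it lay lower under all 3, but higher with no filter on low values (0.77, all genes 0.58). It also lay higher against wild-type cells of 31 and 32 days alone (0.72, all genes 0.44), which in D1 were 3 cells, all of 31 days.

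**Figure D4:**
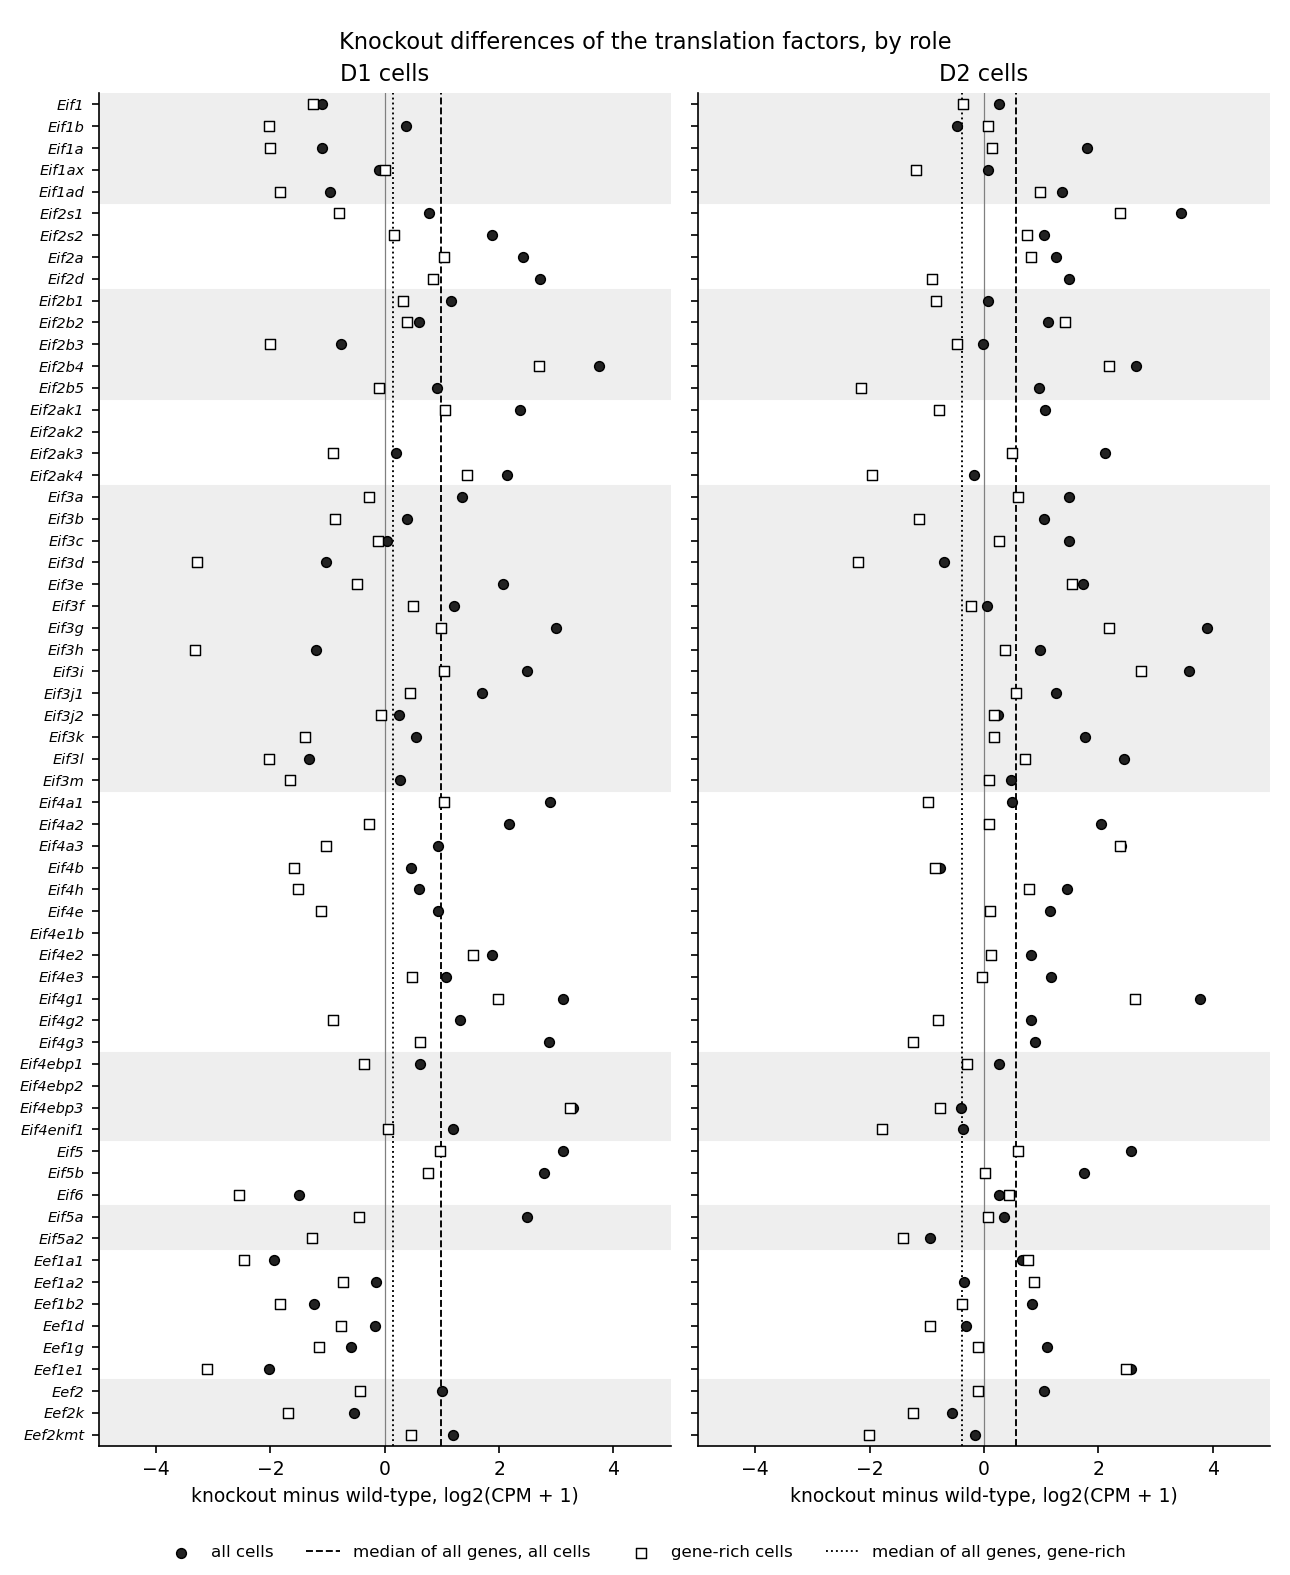
Knockout minus wild-type difference in log2(CPM + 1) (horizontal axis) of each measured factor in D1 (left) and D2 cells (right), over all cells (filled circles) and gene-rich cells (open squares), with shading by role; dashed and dotted lines give the median of all genes. In D1 cells the 6 eEF1 genes lie left of 0, and Eif4g1, Eif2b4 and Eif3i lie at 1 or more in both panels and both sets of cells.

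Of the factors that open the scanning complex, 0 of 5 members of the eIF1 and eIF1A family were at least 1 log2 unit higher in knockout D1 cells and 2 were lower (all genes: 49.6% and 8.02%). Eif1 differed by -1.10 (gene-rich -1.25) at a mean of 295 ± 323 CPM (SD, n = 6) against 551 ± 314 CPM (SD, n = 15). Knockout D1 cell 6 held 69.9% of the summed knockout counts of Eif1. The other of these was Eif1a, one of the 2 genes of eIF1A, at -1.10 (gene-rich -2.01). Reads were present in 2 of 6 knockout D1 and 7 of 15 wild-type D1 cells, and leaving out any 1 of the 6 knockout cells, or wild-type D1 cell 1, moved it by over 1.5 times (-2.14 to -0.61). In D2 cells Eif1 differed by 0.26 and Eif1a by 1.80 (gene-rich -0.36 and 0.13).

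The group of eIF2 and initiator tRNA delivery held 4 genes, Eif2a, Eif2d, Eif2s1 and Eif2s2, of which only Eif2s1 and Eif2s2 encode subunits of eIF2. Of the 4, 3 were at least 1 log2 unit higher in knockout D1 cells (median 2.15, 49.6% of all genes). All 4 were in D2 cells (median 1.37, 36.4% of all genes). Of the 2 subunit genes, Eif2s2 alone reached that size in D1 cells (1.87, gene-rich 0.16). In gene-rich cells 1 of the 4 did in each kind, Eif2a in D1 (median 0.50, 28.5% of all genes) and Eif2s1 in D2 cells (median 0.79, 14.2% of all genes). Eif2d lay at -0.92 in gene-rich D2 cells. With summed counts Eif2a and Eif2d turned to -0.054 and -0.12 in D1, and Eif2a to -1.43 in D2 cells. The D2 value of Eif2s2 (1.04) was 0.50 to 1.84, moved by over 1.5 times without knockout D2 cell 1, 2, 3, 5 or 7. That of Eif2d (1.49) was 0.69 without cell 5 and 2.27 without cell 3 or 6, and that of Eif2a (1.26) was 0.71 without cell 4. Eif2s1 encodes the alpha subunit, the target of the eIF2 kinases. In D2 cells it ran from 0 to 271 CPM (median 147) in the knockout and from 0 to 170 CPM (median 0) in wild type. It was read in 5 of 7 and 9 of 26 cells (71.4%, exact Clopper-Pearson 95% interval 29.0 to 96.3, and 34.6%, 17.2 to 55.7; these intervals cover counting error only). The ranges overlap from 0 upward, and 3 of the 7 knockout cells lay above every wild-type cell. The difference was 3.44 (gene-rich 2.38), and 2.99 to 4.34 as each cell was left out. In D1 cells Eif2s1 was 0.77, and -0.80 in gene-rich cells.

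Eif2b4, the delta subunit of eIF2B, was among the largest differences in both kinds of cell. In D1 cells it ran from 4.07 to 310 CPM (median 29.0) in the knockout and from 0 to 137 CPM (median 0) in wild type, with a read in 6 of 6 and 5 of 15 cells. In D2 cells it ran from 0 to 256 CPM (median 138) in the knockout and from 0 to 1703 CPM (median 0) in wild type, with a read in 6 of 7 and 12 of 26 cells. The ranges overlapped in both kinds, and a single wild-type D2 cell lay above all knockout cells. The difference was 3.75 in D1 (gene-rich 2.70, 3.16 to 4.35 with each cell left out) and 2.67 in D2 cells (gene-rich 2.20, 2.18 to 3.51). With summed counts it was 0.53 and -0.12, where that wild-type D2 cell held 54.2% of the counts. The other 4 subunits did not share this size in both kinds: in D1 and D2 cells Eif2b1 differed by 1.16 and 0.06 (gene-rich 0.33 and -0.84), and Eif2b2 by 0.59 and 1.12 (gene-rich 0.39 and 1.41; summed counts in D2 -1.57). Eif2b3 differed by -0.77 and -0.010 (gene-rich -2.0 and -0.47), and Eif2b5 by 0.91 and 0.96, turning to -0.093 and -2.15 in gene-rich cells. Without knockout D1 cell 5 the D1 value of Eif2b1 was -0.08, and without cell 2 it was 0.47. That of Eif2b2 in D2 cells lay between 0.68 and 1.70, moved by over 1.5 times without knockout D2 cell 4, 5, 6 or 7.

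Of the eIF2 kinases, Eif2ak1 differed by 2.37 and Eif2ak4 (GCN2, which senses uncharged tRNA) by 2.14 in D1 cells, with 1.06 and 1.44 in gene-rich cells. Both were moved by over 1.5 times when knockout D1 cell 5 was left out, to 3.58 and 3.22. With wild-type cells of 31 and 32 days alone, Eif2ak1 turned to -2.55. In D1 these were 3 cells, all of 31 days, and 1 of them, with 1511 genes read, held Eif2ak1 at 1557 CPM. In D2 cells Eif2ak3 differed by 2.12 (gene-rich 0.49), and by 1.38 and 1.17 without knockout D2 cell 3 or 5. Eif2ak4 differed by -0.17 there (gene-rich -1.95).

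eIF3, the largest initiation factor, had 14 measured genes. In D1 cells 6 were higher and 3 lower by at least 1 log2 unit (median 0.46), and in gene-rich cells 1 was higher and 5 lower (median -0.38), where 49.6% and 8.02% of all genes, and 28.5% and 22.7% in gene-rich cells, were higher and lower. In D2 cells 9 were higher and 0 lower (median 1.37), and in gene-rich cells 3 and 2 (median 0.32), where 36.4% and 6.91% of all genes, and 14.2% and 30.0% in gene-rich cells, were higher and lower. Eif3g and Eif3i, which sit together in the complex near the mRNA entry channel, led both kinds of cell.

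Eif3g ran from 1.99 to 441 CPM (median 110) in knockout D1 and from 0 to 348 CPM (median 0) in wild-type D1 cells. It ran from 0.362 to 545 CPM (median 150) in knockout D2 and from 0 to 828 CPM (median 0.482) in wild-type D2 cells. It was read in all 6 and all 7 knockout cells and in 7 of 15 and 13 of 26 wild-type cells, while the levels of the cells with a read overlapped. The differences were 3.0 in D1 (gene-rich 0.98) and 3.91 in D2 cells (gene-rich 2.19). With summed counts they were -0.03 and 2.21. In D1 cells 6 of 9 gene-rich wild-type cells held Eif3g at a mean of 152 CPM over the 9, beside 151 CPM in the 6 knockout cells.

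Eif3i ran from 0 to 759 CPM (median 141) in knockout D1 and from 0 to 544 CPM (median 0.999) in wild-type D1 cells. In D2 cells it ran from 0.350 to 628 CPM (median 101) in the knockout and from 0 to 790 CPM (median 0) in wild type. The ranges overlapped in both kinds, and the knockout medians were higher in both. The differences were 2.49 (gene-rich 1.03) and 3.59 (gene-rich 2.75), and 1.82 to 3.73 and 3.0 to 4.48 as each cell was left out.

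Eif3d, which can itself bind the cap of some mRNAs, was lower in both kinds, at -1.03 in D1 and -0.70 in D2 cells (gene-rich -3.29 and -2.20). Its D1 value moved by over 1.5 times without knockout D1 cell 1, 2, 3, 4 or 5 or wild-type D1 cell 4 (-1.89 to -0.55). The antisense gene Gm17638 overlaps 43.3% of its exon bases, and reads of the pair cannot be told apart where counting ignores strand. Eif3l, a peripheral subunit, had opposite signs: -1.33 in D1 and 2.46 in D2 cells (gene-rich -2.02 and 0.71). In the knockout 2 of 6 D1 and 6 of 7 D2 cells had a read of Eif3l, beside 8 of 15 and 13 of 26 in the wild type. Without knockout D1 cell 4 or wild-type D1 cell 5 its D1 value was -2.33 or -0.78.

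Eif4g1 was the clearest single difference of the cap-binding group. In knockout D1 cells it ran from 0 to 239 CPM (median 94.2) and in wild-type D1 cells from 0 to 398 CPM (median 2.36). In knockout D2 cells it ran from 42.8 to 335 CPM (median 141) and in wild-type D2 cells from 0 to 283 CPM (median 19.1). All 7 knockout D2 cells lay above the wild-type median, and the ranges overlapped in both kinds. The mean was 108 ± 98.8 CPM (SD, n = 6) against 34.2 ± 102 CPM (SD, n = 15) in D1, and 167 ± 110 (SD, n = 7) against 38.4 ± 63.8 CPM (SD, n = 26) in D2 cells. The difference was 3.12 in D1 (gene-rich 1.99, 2.62 to 4.20 with each cell left out) and 3.78 in D2 cells (gene-rich 2.64, 3.56 to 4.05). Over summed counts it was 0.18 and 1.99, the former with the wild-type D1 cell that held 87.5% of the counts.

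**Figure D5:**
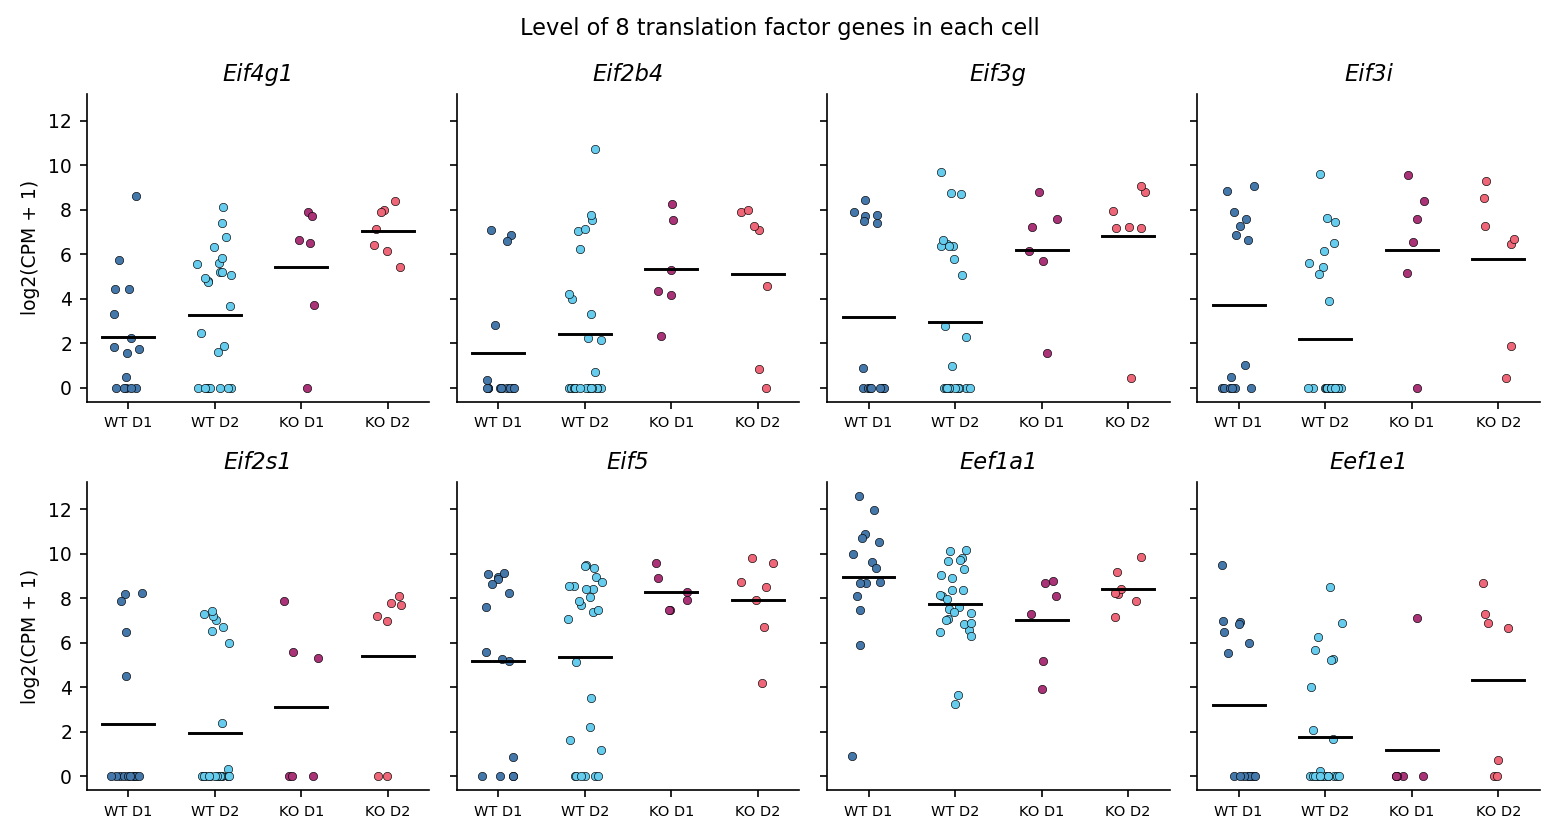
Level in log2(CPM + 1) of 8 factors in each cell of the 4 groups (WT, wild-type; KO, knockout), with a bar at the mean. Eif4g1 lies between 42.8 and 335 CPM in the 7 knockout D2 cells, while many groups of the other genes hold cells without a read beside cells at high levels.

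The other cap-binding genes were less uniform. Of 11 measured genes of this group 7 were higher and 0 lower in D1 cells (median 1.32) and 6 higher and 0 lower in D2 cells (median 1.16), beside 49.6% and 36.4% of all genes higher. In gene-rich cells 3 were higher and 4 lower in D1 (median -0.28, all genes: 28.5% and 22.7%). In gene-rich D2 cells 2 were higher and 1 lower (median 0.09, all genes: 14.2% and 30.0%). Eif4a1, which shares 28.4% of its 50-base windows with other genes, differed by 2.89 in D1 cells (gene-rich 1.04) and by 0.50 in D2 cells (gene-rich -0.99). Eif4g3 differed by 2.87 (gene-rich 0.61) and 0.90 (gene-rich -1.25) in the same order. Eif4a2 differed by 2.18 and 2.05 in all cells but by -0.28 and 0.09 in gene-rich cells. Eif4a3, the helicase of the exon junction complex, differed by 0.92 and 2.40, and by -1.03 and 2.37 in gene-rich cells. Eif4e, the cap-binding protein itself, differed by 0.93 and 1.16, and by -1.12 and 0.11 in gene-rich cells. Its D2 value lay between 0.63 and 2.01, moved by over 1.5 times without knockout D2 cell 2, 3, 4, 5 or 6. Eif4b, a helper of the helicase, differed by 0.47 and -0.77 (gene-rich -1.58 and -0.86).

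The eIF4E-binding proteins, which block the assembly of eIF4F, were sparse. Reads of Eif4ebp1 were present in 4 of 15 (D1) and 4 of 26 (D2) wild-type cells and in 2 of 6 and 1 of 7 knockout cells. Eif4ebp3 was read in 5 of 6 knockout D1 cells (83.3%, interval 35.9 to 99.6), at 0 to 121 CPM (median 37.5). Reads were present in 3 of 15 wild-type D1 cells (20%, 4.33 to 48.1), at 0 to 45.9 CPM (median 0). Both intervals cover counting error only. The ranges overlap at their low end. Its difference was 3.29 in D1 (gene-rich 3.25, 2.68 to 4.07 with each cell left out) and -0.41 in D2 cells (gene-rich -0.77). Another gene on the same strand, AC115631.1, overlaps 67.3% of its exon bases, so that the counts cannot be given to Eif4ebp3 alone.

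Of the factors that join the subunits, Eif5, which triggers GTP hydrolysis by eIF2, had differences of 3.11 (D1) and 2.57 (D2) (gene-rich 0.97 and 0.59). In D1 cells it ran from 175 to 769 CPM (median 279) in the knockout and from 0 to 562 CPM (median 46.7) in wild type. In D2 cells it ran from 17.4 to 894 CPM (median 369) in the knockout and from 0 to 727 CPM (median 172) in wild type. It was read in every knockout cell and in 11 of 15 and 20 of 26 wild-type cells, and the upper parts of the ranges overlapped. Eif5b, the GTPase of subunit joining, differed by 2.78 and 1.75 (gene-rich 0.76 and 0.03); with summed counts its D2 value was -0.26. Exons of Rev1 on the other strand cover 16.8% of Eif5b. Eif6, which holds the large subunit apart, differed by -1.50 in D1 cells (gene-rich -2.55), with 99.8% of its knockout D1 counts in cell 6, without which it was -2.77. Eif5a differed by 2.49 in D1 cells and by -0.46 in the gene-rich ones, and by 0.35 and 0.06 in D2 cells.

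The eEF1 group held 6 genes by name, of which Eef1e1 encodes a subunit of the tRNA synthetase complex and no elongation factor. Of the 6, 3 (Eef1e1, Eef1a1 and Eef1b2) were at least 1 log2 unit lower in knockout D1 cells, against 8.02% of all genes. The median of the 6 was -0.91 (all genes 0.98). Apart from Eef1e1 (-2.03), the values were -1.94 (Eef1a1), -1.23 (Eef1b2), -0.60 (Eef1g), -0.16 (Eef1d) and -0.15 (Eef1a2). In gene-rich D1 cells 4 of the 6, Eef1e1 among them, were lower by that size, against 22.7% of genes. The median there was -1.49 (all genes 0.14). The other 3 lay below 0 by less, and leaving out 1 cell took Eef1a2 to 0.45, Eef1d to 0.59 and Eef1g to 0.090 at most. In D2 cells 4 of 6 lay above 0, with a median of 0.75 (gene-rich 0.33). Eef1a1 ran from 14.2 to 441 CPM (median 216) in knockout D1 cells and from 0.850 to 6238 CPM (median 652) in wild-type D1 cells. In D2 cells it ran from 142 to 926 CPM (median 305) in the knockout and from 8.48 to 1163 CPM (median 224) in wild type. Every knockout D1 cell lay below the wild-type D1 median, although the ranges overlapped. The mean was 224 ± 185 CPM (SD, n = 6) against 1302 ± 1714 CPM (SD, n = 15) in D1 cells, and 402 ± 266 (SD, n = 7) against 364 ± 345 CPM (SD, n = 26) in D2 cells. The difference was -1.94 in D1 (gene-rich -2.46, -2.52 to -1.32 with each cell left out) and 0.66 in D2 cells (gene-rich 0.76). Over summed counts it was -2.13 and 0.33. The summed microglial and astrocyte markers had higher medians in wild-type than in knockout D1 cells too (898 against 439 and 1059 against 602 CPM). The oligodendrocyte markers went the other way (338 against 393 CPM). Microglial and astrocyte medians were also higher in wild-type than in knockout D2 cells (588 against 249 and 835 against 675 CPM), where Eef1a1 was higher in the knockout. Oligodendrocyte medians were lower in wild-type D2 cells (585 against 1062 CPM). The part of these markers in the Eef1a1 values was not tested.

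Eef1e1, a subunit of the tRNA synthetase complex also known as AIMP3, had the widest gap between the kinds. It was read in 1 of 6 knockout D1 cells (16.7%, interval 0.421 to 64.1, for counting error only), at 139 CPM. Reads were present in 7 of 15 wild-type D1 cells at up to 716 CPM, in 5 of 7 knockout D2 cells at up to 417 CPM (median 102), and in 10 of 26 wild-type D2 cells at up to 363 CPM. The difference was -2.03 in D1 (gene-rich -3.12) and 2.57 in D2 cells (gene-rich 2.49). Without knockout D1 cell 3, the one with a read, the D1 value was -3.22, and the D2 value lay between 1.84 and 3.29 with each cell left out. Whether the 2 knockout differences differ was not tested. Eef1b2, the exchange factor of eEF1A, differed by -1.23 in D1 (gene-rich -1.83) and 0.85 in D2 cells (gene-rich -0.38). Its D1 value moved by over 1.5 times without knockout D1 cell 1, 3, 4, 5 or 6 (-2.19 to -0.52). It was 0.77 against wild-type cells of 31 and 32 days alone (3 cells). Eef1a2 differed by -0.15 and -0.35 (gene-rich -0.73 and 0.87), Eef1d by -0.16 and -0.32 (gene-rich -0.76 and -0.95), and Eef1g by -0.60 and 1.10 (gene-rich -1.15 and -0.10). The D2 value of Eef1g was 0.28 without knockout D2 cell 5 and 1.86 without cell 3 or cell 7. Eef1g shares 44.2% of its 50-base windows with other genes.

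Eef2 had differences of 1.01 (D1) and 1.05 (D2) in all cells, and of -0.43 and -0.11 in gene-rich cells. It was 0.36 without knockout D1 cell 4, 1.91 without knockout D1 cell 5 and 0.63 without knockout D2 cell 5. Eef2k, the kinase that inhibits it, had reads in 2 of 6 (D1) and 2 of 7 (D2) knockout cells, beside 4 of 15 and 8 of 26 of the wild type. Eef2k differed by -0.54 and -0.56 (gene-rich -1.69 and -1.24).

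Of 58 factors measured in D1 and D2 cells, over all and over gene-rich cells, 11 were higher in the knockout in all 4 comparisons (19%, and 19% of 10143 genes). On GRCm38 some factors described above lie at these positions: Eif4g1 at chr16:20668313-20692884, Eif2b4 at chr5:31187558-31193430, Eif3g at chr9:20894349-20898623, Eif3i at chr4:129591960-129600648 and Eef1a1 at chr9:78478449-78489151. Other factors with large differences are left out here, such as Eif2s1 and Eif5, both on chromosome 12. The 11 were Eif2b4, Eif4g1, Eif3i, Eif3g, Eif2a, Eif5, Eif3j1, Eif2b2, Eif2s2, Eif4e2 and Eif5b. The gene-rich cells are part of all cells, so these are not 4 separate readings. Of the 11, Eif2b4, Eif4g1 and Eif3i were higher by at least 1 log2 unit in all 4 (3 of 58, or 5.17%, and 3.65% of genes). The factors lower in all 4 were Eif3d, Eef2k, Eef1d and Eif2b3 (6.90%, and 7.67% of genes). Lower in knockout D1 but higher in knockout D2 cells, in both sets, were Eef1e1, Eif1ad, Eif3l, Eef1a1, Eif3h, Eif6 and Eif1a (12.1%, and 9.93% of genes). The reverse held for Eif4ebp3, Eif2ak4, Eef2kmt and Eif4enif1 (6.90%, and 15.0% of genes). The first 4 of these shares were within 3 percentage points of those of all genes, and the last was lower. Alg1 and Gm15983 overlap 23% of the exon bases of Eef2kmt, on the other strand, and its D1 value turned to -0.73 against wild-type cells of 31 and 32 days (3 cells).

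Next, D1 and D2 cells of the wild type were compared. Of 59 measured factors 10 were at least 1 log2 unit higher and 7 lower in D1 cells, against 9.21% and 13.2% of 11059 genes, with medians of 0.03 for the factors and -0.14 for all genes. In gene-rich cells 13 were higher and 9 lower (all genes: 11.1% and 33.4%), with medians of -0.02 and -0.48. Eef1a1 differed by 1.19 (gene-rich 1.72) at means of 1302 and 364 CPM. It lay at 0.75, 4.04, 0.09 and -0.26 at the shared ages of 29, 30, 31 and 34 days, and was 0.47 without the cells of 30 days. The cell in which Eef1a1 took most of the factor counts, 72.3%, was a wild-type D1 cell of 30 days.

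The largest differences toward wild-type D1 cells were in Eif4a3 (1.52, gene-rich 2.82), Eif3i (1.5, gene-rich 2.27) and Eef1e1 (1.45, gene-rich 1.74). Without the cells of 29 days Eif4a3 was 0.86, without those of 31 days Eif3i was 2.29, and Eef1e1 was 0.88, 2.42 and 0.95 without those of 28, 30 and 31 days. Toward D2 cells the largest were Eif5a (-2.04, but 0.71 in gene-rich cells), Eif4e2, a cap-binding homologue that represses translation (-1.90, gene-rich -2.81), and Eef2 (-1.46, gene-rich -0.75). Eif4e2 was read in 1 of 15 wild-type D1 cells (6.67%, interval 0.169 to 31.9) and in 14 of 26 wild-type D2 cells (53.8%, 33.4 to 73.4). These intervals cover counting error only, not the spread between animals, so they are no test of D1 against D2. Its D1 reading was 157 CPM, inside the D2 range of 0 to 545 CPM. Eef2 was -0.94 without the cells of 35 days. At all 4 shared ages 1 factor, Eif2ak4, was higher in D1 (1.93, 1.00, 0.38 and 0.22), and Eif2s2, Eif4a1 and Eif5a were lower. Over all ages Eif2ak4 differed by 1.19, but by -0.21 in gene-rich cells and -0.56 with summed counts, and Eif5a turned to 0.11 with summed counts. Eif2s2 differed by -0.95 (gene-rich -0.33) and Eif4a1 by -1.22 (gene-rich -0.56). Of all measured genes 3.75% were higher and 3.67% lower at all 4 ages.

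In the knockout 10 of 58 measured factors were at least 1 log2 unit higher and 15 lower in D1 than in D2 cells, against 32.9% and 21% of 10990 genes. The median was -0.05 for the factors and 0.29 for all genes. In gene-rich cells 9 were higher and 19 lower (all genes: 27.5% and 26.2%), with medians of -0.48 and 0.02. This comparison shares its cells with the knockout differences above. Toward D1 cells Eif2ak4 led (3.50, gene-rich 3.18), at 0 to 284 CPM (median 54.9) in knockout D1 and 0 to 216 CPM (median 0.260) in knockout D2 cells. The ranges overlapped, and 94.9% of its knockout D2 counts came from 1 cell. Eif4ebp3 followed at 3.02 (gene-rich 2.87). Toward D2 cells Eif3l (-3.45, gene-rich -4.34) and Eef1e1 (-3.15, gene-rich -3.87) led, then Eif2s1 (-2.27, gene-rich -3.17). Eif4g1 was lower in D1 as well (-1.65, gene-rich -1.64), and -0.57 without knockout D1 cell 1, the one without a read. The eEF1 group had 1 gene higher and 4 lower of 6 (median -1.16, gene-rich -1.12).

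Other genes of the pathway, outside the symbol rule, also gave values that depended on the cells used. Of all genes 49.6% (D1) and 36.4% (D2) were at least 1 log2 unit higher in the knockout, or 28.5% and 14.2% among gene-rich cells. Lower by that size were 8.02% and 6.91%, or 22.7% and 30.0% among gene-rich cells. The medians of all genes were 0.98 and 0.56, or 0.14 and -0.39 among gene-rich cells. Of 23 genes listed as partners and regulators of eIF4F and the cap, 13 were higher and 0 lower in D1 cells (median 1.49). In D2 cells 11 were higher and 1 lower (median 0.91). In gene-rich cells 11 were higher and 5 lower in D1 (median 0.72), and 2 higher and 8 lower in D2 cells (median -0.33). Of 17 partners of elongation and hypusination, the modification of eIF5A, 8 were higher and 0 lower in each kind (medians 0.93 and 0.93). In gene-rich cells 5 were higher and 2 lower in D1 (median 0.00), and 1 higher and 2 lower in D2 cells (median 0.08). Of the 14 genes listed for the integrated stress response, the programme that eIF2 kinases start, 7 of 10 measured were higher and 0 lower in D1 (median 1.55), and 6 of 12 higher and 1 lower in D2 cells (median 1.00). In gene-rich cells 3 were higher and 3 lower in D1 (median 0.17), and 4 higher and 5 lower in D2 cells (median -0.30). Of 10 termination, recycling and reinitiation genes, 5 were higher and 0 lower in D1 (median 1.04), and 4 higher and 1 lower in D2 cells (median 0.46). In gene-rich cells 3 were higher and 4 lower in D1 (median -0.18), and 1 higher and 5 lower in D2 cells (median -0.42).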

How the data were processed

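The cytosol of single neurons was drawn up through a patch pipette and made into libraries with Nextera XT, per the labels' protocols. For read processing the submitters' processing notes list Trimmomatic, STAR, featureCounts and GRCm38 without versions, roles or strand settings. The authors deposited read counts per gene symbol (22800) and per Ensembl identifier (22880), which held the same counts for all 62 factors. They also deposited a normalized signal table (14067 symbols, 60 of the factors), equal to the counts times 1 factor per cell (0.373 to 51.5), used as an alternative. Each table held 2 columns that match no sample and were not used.

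CPM used each cell's total over genes. Differences are those of the mean of log2(CPM + 1), which understates differences of low genes. TMM factors came from edgeR 4.0.16 (R 4.3.3), and the rest from Python 3.11.15, numpy 2.4.6, pandas 2.3.3, scipy 1.17.1 and matplotlib 3.10.9. No p-value was computed. The script was tested on simulated data: of 22800 genes 200 were shifted by 2 log2 units, and for knockout against wild-type D1 cells 99.5% of those had the right direction. The shifted genes were picked from the more abundant ones. Apart from the shift, simulated cells came from a shared profile and differed only in total counts and random noise. The larger number of genes read in the knockout groups was not built in. The 99.5% therefore does not carry over to the directions reported here. Exon lengths, overlaps and shared 50-base windows came from GENCODE vM21 on GRCm38. The members and lists were chosen with earlier results of these data known. For each comparison up to 8 factors per direction were named by size, among those with a mean of at least 10 CPM and a read in at least 33% of cells in 1 group. A fixed list of core factors was named besides, and other factors named were chosen after their values were seen. Intervals are exact Clopper-Pearson at 95%. They take cells as independent and leave out the spread between animals, which the labels do not name. Alternatives were the pseudocount, the filter, scaling, gene-rich cells, summed counts, ages and left-out knockout cells; leaving out each wild-type cell was chosen after seeing the data. A knockout D1 cell labelled as failing quality control was kept out of all comparisons.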

Additional observations from a re-analysis of the deposited data

Results flagged for a closer look

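In the knockout groups some factors had 1 cell far from the others. The gap to the next cell took up most of the group's range. The rule was applied to 104 values and is set to flag about 1 in 20 groups by chance. That rate does not hold for counts with many cells at 0. A factor read in a single cell of its group has the largest possible gap at any level, as Eef1e1, Eif4ebp1, Eif4ebp3, Eif5a2 and Eif2ak2 did. The flagged values in knockout D1 cells were Eef1e1 in cell 3 (139 CPM, the other cells at 0), Eef2k in cell 1 (116 CPM), Eif1 in cell 6 (951 CPM) and Eif6 in cell 6 (229 CPM). In knockout D2 cells the high ones were Eef2k in cell 3 (54.2 CPM), Eif2b1 in cell 2 (244 CPM), Eif3d in cell 1 (195 CPM) and Eif4ebp1 in cell 3 (124 CPM). Cell 4 of that group stood out for Eif4ebp3 (66 CPM), Eif3j2 (17.3 CPM), Eif5a2 (1.02 CPM) and Eif2ak2 (0.339 CPM). The low ones were Eif3g in cell 7 (0.362 CPM) and Eif4h in cell 5 (0 CPM). Cell 5 is the knockout D2 cell below 4000 genes read.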

How the results depend on the processing

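No paired analysis was possible because replicate numbers only name cells and no test was made. The cause of each shift below was not tested. For knockout against wild-type D1 cells the factors' median turned to -0.43 in gene-rich cells and -0.16 with summed counts. Higher factors there numbered 17 with log2(CPM + 10), 9 in gene-rich cells and 4 with summed counts (all genes: 29.1%, 28.5% and 25.1%). Lower ones numbered 3, 21 and 14 (all genes: 2.58%, 22.7% and 26.7%), and 15 against wild-type cells of 31 and 32 days (all genes: 25.4%). In D2 cells the median was -0.082 with summed counts. Higher factors numbered 11 with log2(CPM + 10), 9 in gene-rich cells and 11 with summed counts (all genes: 15.4%, 14.2% and 15.1%). Lower ones numbered 1 with log2(CPM + 0.1), 2 with the authors' normalized values and 10 in gene-rich cells (all genes: 12.4%, 10.8% and 30.0%). They numbered 13 with summed counts and 3 against the 31 and 32 days (all genes: 37.5% and 10.7%). Between wild-type D1 and D2 cells, lower factors numbered 13 with log2(CPM + 0.1), 1 with log2(CPM + 10) and 12 with the authors' values (all genes: 24.8%, 2.99% and 20.8%). Higher ones there numbered 2 with log2(CPM + 10), 17 with summed counts and 6 as a mean within ages (all genes: 2.79%, 17.8% and 16.4%). In the knockout 7 were lower in D1 cells with log2(CPM + 10) (all genes: 9.53%).

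With each cell or age left out, the medians lay between 0.58 and 1.11 (knockout, D1), 0.71 and 1.30 (knockout, D2), -0.27 and 0.23 (wild-type kinds) and -0.48 and 0.04 (knockout kinds). Higher factors numbered 24 to 31, 22 to 33, 8 to 15 and 9 to 11 in the same order, and lower ones 5 to 10, 0 to 3, 5 to 11 and 11 to 21. Leaving out knockout D1 cell 3 or cell 5 gave the 5, and wild-type D1 cell 15 the 11 between wild-type kinds.

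Of the factors whose difference was at least 1 log2 unit, these turned in direction. Knockout D1, gene-rich: Eef2 -0.43, Eif3a -0.27, Eif3e -0.48, Eif4a2 -0.28, Eif4g2 -0.91, Eif5a -0.46. Summed: Eef2 -0.78, Eif2a -0.054, Eif2d -0.12, Eif3f -0.28, Eif3g -0.029, Eif4a2 -0.26, Eif5a -0.14. Against 31 and 32 days: Eef1b2 0.77, Eef2kmt -0.73, Eif2ak1 -2.55. With each cell left out: Eif2b1 -0.080 (without knockout D1 cell 5) to 1.71. Knockout D2, gene-rich: Eef1g -0.10, Eef2 -0.11, Eif2ak1 -0.78, Eif2d -0.92, Eif3b -1.13, Eif4e3 -0.036. Summed: Eif2a -1.43, Eif2ak1 -0.17, Eif2b2 -1.57, Eif2b4 -0.12, Eif3c -0.21, Eif3e -0.80, Eif3j1 -0.76, Eif4a2 -0.082, Eif4e3 -0.16, Eif4h -1.14, Eif5b -0.26. Against 31 and 32 days: Eif3c -0.12. Wild-type kinds, gene-rich: Eif2ak4 -0.21, Eif3c -0.16, Eif5a 0.71. Summed: Eef1d -0.48, Eif2ak4 -0.56, Eif5a 0.11. Within ages: Eif3e -0.13, Eif4enif1 0.084. Knockout kinds, summed: Eef1b2 0.10, Eif3h 0.10. With each cell left out: Eif2b1 -0.0091 (without knockout D1 cell 5) to 2.36. Over all alternatives 728 of 9113 values of single factors had another sign than the main one: the 46 above and 682 of factors that differed by under 1 log2 unit, which are not listed. The SDs between cells are wide and limit what any 1 value shows.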

Other observations

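The knockout D1 cell labelled as failing quality control held 950010 counts over 995 genes. It had reads of 8 of the 62 factors, with 358 CPM in all. Eif4a2 made up 267 CPM of these, followed by Eif5b (33.7), Eif2ak4 (32.6) and Eif3a (18.9), while Eef1a1 stood at 1.05 CPM.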
